A study of Arabidopsis thaliana with 36 samples.

Results

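The aquaporin family of Arabidopsis roots was followed through 35 loci, chosen by their locus identifiers and not by any measured value, out of 28775 genes in the count table. They comprised 13 plasma membrane intrinsic proteins (PIPs, with 5 in the PIP1 and 8 in the PIP2 group), 10 tonoplast intrinsic proteins (TIPs), 9 nodulin 26-like intrinsic proteins (NIPs) and 3 small basic intrinsic proteins (SIPs). Transcripts were counted in lower root segments of 5-d-old seedlings that had been moved to 140 mM NaCl or to a mock plate for 1 or 8 h. Mutants with altered signalling by gibberellin, the growth hormone whose response is repressed by DELLA proteins, were set against their wild-type background Landsberg erecta (Ler). The della5x line combines lesions in all 5 DELLA genes (the alleles rgl3-4, rgl2-1, rgl1-1, rga-t2 and gai-t6), gai makes a stabilised form of the DELLA protein GAI, and ga4 is defective in gibberellin synthesis. The della5x and Ler lines were sampled on salt and on mock at both times, and gai and ga4 on salt and on mock at 8 h, giving 12 groups of 3 libraries. Each library was made from a pool of seedlings of a single line, and as no label ties libraries to separate sowings, P values describe the spread between these pools only.

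Aquaporins are membrane channels that let water, and in many cases small uncharged solutes, pass along their gradient. PIPs sit mainly in the plasma membrane, where PIP2 proteins conduct water strongly and PIP1 proteins depend on PIP2 partners to reach the membrane. TIPs occupy the vacuolar membrane, NIPs carry solutes such as boric acid, arsenite, lactic acid and hydrogen peroxide more than water, and SIPs reside in the endoplasmic reticulum. In roots, PIPs set much of the water conductance of the path from soil to xylem, and this conductance is known to drop when roots meet salt.

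The 36 libraries held 16772984 to 23811804 counts on genes. Levels are given as CPM, the count of a gene scaled to a common library total after TMM normalization. A gene was called higher or lower where the adjusted P in the edgeR quasi-likelihood test was under 0.05 and the log2 fold change was above 0.5 or below -0.5. The salt and DELLA labels were checked on other genes: all 3 salt markers (RD29A, RD29B and RAB18) were called higher on salt in each of the 6 responses, and in della5x mock roots at 8 h 4 of the 5 DELLA transcripts were called lower and RGL3 higher, at 159 ± 9.56 CPM in della5x, against 4.05 ± 0.968 CPM in Ler (SD, n = 3 each). Counts per gene do not show whether such reads come from an intact transcript. Replicate 2 of della5x on salt at 1 h stood apart, with log2 CPM that correlated with its replicates at r of 0.934 and 0.948, against 0.960 to 0.993 for all replicate pairs without it. Replicate 1 of Ler on mock at 1 h had r of 0.972 and 0.975, which lie within that range, against 0.990 between its replicates, but its PIP genes summed to 5164 CPM, against 7846 and 8492 CPM in its replicates. Results of 1 h are given with and without these libraries, a choice made after seeing the data. The Ler library was picked by its low PIP sum, a value of the members themselves. Because whole root segments were used, fewer cells of a type and less RNA per cell cannot be told apart.

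Reference sequence shows what the counts can and cannot separate, and what lies before some of the genes that moved. The reads of Ler lines were mapped to the Columbia genome, whose sequence (RefSeq TAIR10.1) is printed here. PIP2;2 (AT2G37170, chr2:15613368-15615022, minus strand) and PIP2;3 (AT2G37180, chr2:15617635-15619155, plus strand) are the closest pair of the family, with 813 of 858 coding positions identical (94.8%) and a longest identical run of 242 bases. Of their 150-base transcript windows, 7.78% of those of the first and 8.68% of those of the second occurred also in the partner. A single read within such a window fits both genes, but the reads were paired and its mate may tell them apart. How many read pairs remained unassigned was not measured. No other member shared a window of that length. The stretch from coding position 414 to 473 is shown because its 10 differences, in capitals, are among those that tell the pair apart:
PIP2;2: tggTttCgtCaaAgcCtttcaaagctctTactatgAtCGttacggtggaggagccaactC
PIP2;3: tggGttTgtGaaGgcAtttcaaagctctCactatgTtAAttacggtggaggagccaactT

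The other tandem pair consists of NIP4;1 (AT5G37810, chr5:15045114-15048012) and NIP4;2 (AT5G37820, chr5:15050002-15051599), both on the plus strand and 88.0% identical over 852 coding positions. The copy at the higher coordinate gave the largest rise in Ler after 8 h of salt while its neighbour had no count in any of the 36 libraries, and they shared no 150-base window. Coding positions 789 to 848 are shown, with the 22 differences in capitals:
NIP4;1: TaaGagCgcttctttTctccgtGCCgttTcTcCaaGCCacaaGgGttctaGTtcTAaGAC
NIP4;2: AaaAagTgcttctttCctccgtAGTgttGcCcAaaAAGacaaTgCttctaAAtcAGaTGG

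The 250 bases before each annotated gene start were searched on both strands for the core of the dehydration-responsive element (CCGAC, or GTCGG on the other strand) and for the core of the abscisic acid-responsive element (ACGTG or CACGT), to which stress-regulated transcription factors are known to bind. The first occurred before 4 of the 35 aquaporins (11.4%), against 11.9% of 26709 protein-coding genes of the table, and the second before 4 of 35 (11.4%), against 23.1%. A match describes the letters only. The 4 stretches with CCGAC or its complement are shown, 5′ to 3′ on the strand of the gene and with the matches in capitals, because they precede PIP1;3, PIP2;5, TIP1;1 and TIP1;2, of which the first and the last were lower and the second higher in Ler after 8 h of salt. They lie at chr1:227544-227793 (minus strand), chr3:20301509-20301758 (plus), chr2:15445044-15445293 (plus, with a further ACGTG match on the other strand) and chr3:9723905-9724154 (minus), in this order:
before PIP1;3: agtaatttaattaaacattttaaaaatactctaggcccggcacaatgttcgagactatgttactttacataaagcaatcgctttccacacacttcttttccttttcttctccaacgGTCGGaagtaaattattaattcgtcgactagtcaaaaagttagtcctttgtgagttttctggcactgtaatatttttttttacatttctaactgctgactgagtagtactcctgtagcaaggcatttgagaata
before PIP2;5: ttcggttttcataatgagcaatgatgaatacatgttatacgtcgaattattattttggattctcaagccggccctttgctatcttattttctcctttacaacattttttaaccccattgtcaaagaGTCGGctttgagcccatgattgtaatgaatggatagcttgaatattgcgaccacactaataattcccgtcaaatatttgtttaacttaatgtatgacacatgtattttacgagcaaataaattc
before TIP1;1: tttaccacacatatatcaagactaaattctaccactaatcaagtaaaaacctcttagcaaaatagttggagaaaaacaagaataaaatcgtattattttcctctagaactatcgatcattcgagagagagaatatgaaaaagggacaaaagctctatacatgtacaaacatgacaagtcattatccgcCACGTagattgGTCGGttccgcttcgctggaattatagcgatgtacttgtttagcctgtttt
before TIP1;2: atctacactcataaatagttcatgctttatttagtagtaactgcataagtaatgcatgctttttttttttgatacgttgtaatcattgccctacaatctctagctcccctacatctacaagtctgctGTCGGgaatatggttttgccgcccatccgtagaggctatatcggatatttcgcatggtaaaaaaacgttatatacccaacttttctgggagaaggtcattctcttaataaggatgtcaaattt

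Levels within the family spanned more than the effects of any treatment. In Ler mock roots at 8 h, on the scale of mean CPM per kilobase of exon, TIP1;2 (1631) and TIP1;1 (1557), vacuolar channels for water, urea and hydrogen peroxide, were the most abundant. PIP2;1 (853) and PIP1;2 (834), main plasma membrane aquaporins of the root, followed, and TIP2;2 (700), which also conducts ammonia, came next. The next were PIP2;2 (587) and PIP1;3 (538) on this scale, which is not corrected for how evenly reads cover a transcript. The highest SIP reached 106 and the highest NIP 87.1, whereas 8 of the tested members were under 5. Of the known pollen and seed aquaporins, 5 were at or near the limit of detection. TIP5;1 and NIP4;1, which are pollen aquaporins, had no count, which allows up to 3 counts per library. The pollen gene TIP1;3 and the seed genes TIP3;1 and TIP3;2 collected 53, 20 and 13 counts over all 36 libraries. These 5 passed no filter on low counts and were not tested. The pollen-type NIP4;2 had counts in all 36 libraries and was tested. For the salt responses 29 members were tested at 1 h and 30 at 8 h, and for the genotypes on mock 28 and 29. NIP2;1, a channel for lactic acid that is known from roots without oxygen, had 575 counts in all and was tested at 8 h only.

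Summed over all members, aquaporin transcripts made up 1.57 ± 0.156% of the counts in Ler roots after 1 h of salt, against 1.41 ± 0.388% on mock, and 0.745 ± 0.102% after 8 h of salt, against 1.25 ± 0.116% on mock (SD, n = 3 each). The 3 libraries of 8 h of salt were all below the 3 of mock, and those of 1 h overlapped. The drop at 8 h lay in the plasma membrane and vacuolar groups, with PIPs at 3993 ± 571 CPM on salt, against 6343 ± 600 CPM on mock, and TIPs at 3242 ± 501 CPM, against 5635 ± 490 CPM. NIPs summed to 175 to 198 CPM on salt, against 217 to 265 CPM on mock, and SIPs to 199 ± 7.82 CPM, against 208 ± 7.85 CPM, which is little beside the PIP and TIP sums. The mutants had the same order at 8 h. All aquaporins took 0.679 ± 0.103% in della5x on salt, against 1.06 ± 0.156% on mock, 0.848 ± 0.0771% in gai, against 1.33 ± 0.135%, and 0.695 ± 0.0704% in ga4, against 1.15 ± 0.172%. At 8 h replicate 3 (numbered by listing order) had the lowest PIP sum, the lowest TIP sum and the highest NIP sum in all 8 groups, and no label says whether these libraries share a batch. A sum is carried by its most abundant members and was not tested.

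**Figure D1:**
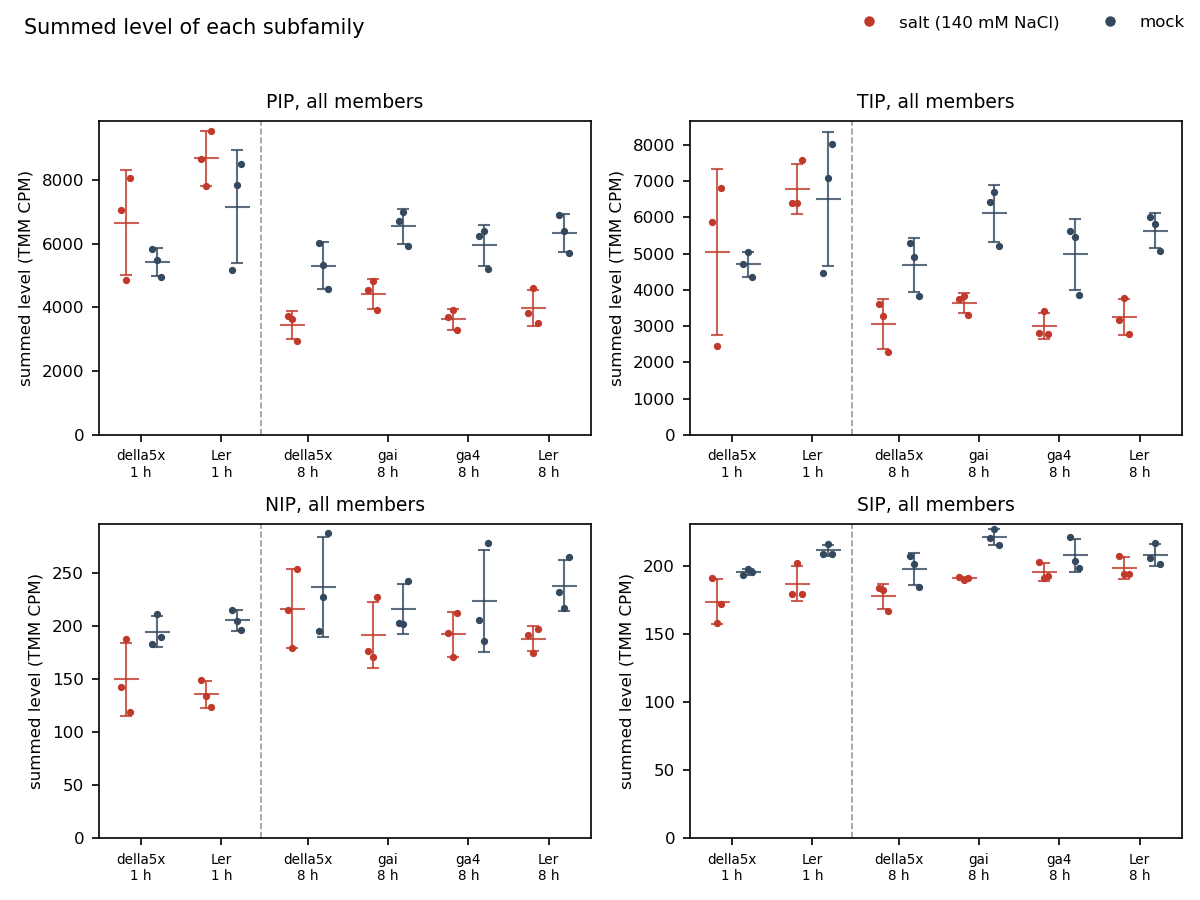
Summed CPM (vertical axes, from 0) of the PIP, TIP, NIP and SIP genes in each of the 36 libraries by group, with salt in red left of mock in dark blue. Points are libraries and bars are the mean ± SD of 3, and after 8 h the PIP sums of Ler were 3513 to 4624 CPM on salt, below the 5718 to 6915 CPM of mock.

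After 1 h of salt, the share of aquaporins called in Ler was near that of all genes. In that line, 1 of the 29 tested members was called higher and 3 lower, next to 8.54% and 5.37% of all genes tested. The 3 lower ones were NIPs, and the calls of NIP4;2 and NIP6;1 were lost when any single library was left out. In della5x, 0 were called higher and 2 lower, next to 6.62% and 3.52% (edgeR), with 7 members at an unadjusted P under 0.05, next to 26.4% of all genes, and DESeq2 called 2 higher. The median log2 fold change of the members was -0.17 in Ler and 0.00 in della5x, against -0.01 and 0.00 over all genes.

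NIP1;1 (AT4G19030), a channel known to carry arsenite and hydrogen peroxide, was the member called lower in both lines at 1 h. It had 57.1, 44.4 and 44.8 CPM on salt, against 77.3, 76.7 and 76.1 CPM on mock in Ler, and 36.1, 26.2 and 33.7 CPM on salt, against 72.4, 70.7 and 60.3 CPM on mock in della5x. The groups did not overlap in either line. The log2 fold changes were -0.66 ± 0.14 (SE, adjusted P = 0.00773) and -1.08 ± 0.14 (adjusted P = 0.000644).

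The pollen-type NIP4;2 (AT5G37820) was low throughout at this time, with 0.250, 1.05 and 0.639 CPM in Ler on salt, against 3.74, 4.09 and 1.91 CPM on mock. The call (log2 fold change -2.34 ± 0.71, adjusted P = 0.0439) was lost when any single library of the comparison was left out, with values of -2.87 to -1.94. The same held for NIP6;1 (AT1G80760), a boric acid channel known from shoot nodes, which had 1.83, 1.89 and 1.12 CPM on salt, against 3.74, 2.72 and 3.66 CPM on mock (-1.06 ± 0.31, adjusted P = 0.0347, range -1.19 to -0.86). An antisense gene overlaps it, and whether reads were counted by strand is not stated.

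PIP1;4 (AT4G00430), known to rise in drought-stressed leaves, was the member called higher in Ler at 1 h, with 158, 209 and 239 CPM on salt, against 116, 146 and 113 CPM on mock (log2 fold change 0.68 ± 0.16, adjusted P = 0.0144). All salt libraries were above those of mock. Without replicate 3 of the mock group or of the salt group the adjusted P was 0.0572 or 0.0686. SIP1;2 (AT5G18290), a water channel of the endoplasmic reticulum that overlaps other genes, was the other member called lower in della5x. It had 1.99, 1.14 and 1.49 CPM on salt, against 5.33, 3.84 and 4.37 CPM on mock (-1.55 ± 0.32, adjusted P = 0.00925), and in Ler 1.08, 1.21 and 0.692 CPM on salt, against 1.35, 1.36 and 1.55 CPM on mock (-0.52 ± 0.33, adjusted P = 0.326).

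What the abundant PIPs and TIPs did at 1 h rested on these libraries of 1 h. All aquaporins summed to 7641 CPM in replicate 2 of della5x on salt, against 13261 and 15171 CPM in its replicates, and TIP2;3, a vacuolar channel for water and ammonia, had 378, 108 and 574 CPM in that group, against 156, 181 and 125 CPM on mock. In Ler the same gene had 523, 525 and 765 CPM on salt, against 72.8, 345 and 427 CPM on mock, where the lowest value was that of replicate 1. Without replicate 2 of della5x on salt alone, 1 member was called higher in della5x (PIP1;2, 0.90) and 2 lower, next to 6.85% and 5.33% of all genes, and without replicate 1 of Ler on mock alone, 1 was higher and 1 lower in Ler, next to 7.46% and 3.42%. Without both libraries, 6 members were called higher in della5x after 1 h, namely PIP1;1, PIP1;2, PIP2;1, TIP1;1, TIP2;2 and TIP2;3, by log2 fold changes of 0.52 to 1.63, next to 7.82% of all genes, and 2 were lower, next to 6.35%. In Ler 1 member was then higher and 4 were lower, next to 9.71% and 6.16%. The lower ones were NIP1;1, the plasma membrane channels PIP2;4 (-0.57) and PIP2;7 (-0.83) and the vacuolar TIP2;1 (-0.81). Both left-out libraries were low in aquaporins, and the Ler one was picked by its PIP sum. Leaving them out raises the salt means of della5x and the mock means of Ler for such genes. The PIP and TIP calls gained in this way are therefore no support for a response at 1 h.

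After 8 h the response of the family was broad and mainly downward. In Ler, 12 of the 30 tested members were called lower and 5 higher, next to 10.4% and 12.9% of all genes. The lower ones were 3 of 5 PIP1, 4 of 8 PIP2 and 3 of 6 tested TIP genes, with 2 of 8 tested NIPs, and the higher ones were 3 NIPs and 1 gene each of the PIP1 and PIP2 groups. The 3 SIPs, at -1.06 to -0.07, did not pass the test, and the median log2 fold change of all tested members was -0.68, against -0.01 over all genes. In della5x 12 members were lower and 4 higher, next to 9.03% and 13.7%. In gai the counts were 13 and 5, next to 8.35% and 10.6%, and in ga4 16 and 5, next to 9.01% and 10.7%. The medians were -0.40 in della5x, -0.54 in gai and -0.80 in ga4. Each genotype had its own salt and mock libraries, and 11 members were lower and 3 higher in all 4, next to 4.69% and 7.42% of all genes.

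Among the plasma membrane genes, the deepest change in Ler was that of PIP1;5 (AT4G23400). It had 57.6, 59.3 and 33.6 CPM in Ler after 8 h of salt, against 272, 236 and 273 CPM on mock, a log2 fold change of -2.38 ± 0.16 (adjusted P = 2.69e-10). In the mutants the 9 salt libraries had 42.7 to 83.0 CPM, against 196 to 268 CPM in the 9 mock libraries, without overlap, and the log2 fold changes were -1.63 in della5x, -2.07 in gai and -2.07 in ga4. At 1 h it had 231, 192 and 279 CPM on salt, against 173, 240 and 324 CPM on mock in Ler, with groups that overlapped.

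PIP2;4 (AT5G60660), a root channel that passes water and hydrogen peroxide, was about as deep. Ler roots had 23.6, 27.3 and 17.3 CPM on salt, against 119, 111 and 104 CPM on mock (-2.30 ± 0.18, adjusted P = 2.06e-09), and the mutants had 12.5 to 36.2 CPM on salt, against 62.4 to 116 CPM on mock. PIP1;3 (AT1G01620), another plasma membrane channel, is more abundant. It had 241, 314 and 280 CPM in Ler on salt, against 941, 798 and 761 CPM on mock (-1.59 ± 0.13, adjusted P = 2.62e-09), and 221 to 378 CPM in the mutants on salt, against 573 to 964 CPM on mock. Salt and mock libraries of 8 h did not overlap for either gene in any genotype.

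The response of PIP2;7 (AT4G35100), whose protein is known to leave the plasma membrane under salt, varied least between genotypes among these genes, with log2 fold changes of -1.12 in della5x, -1.07 in gai, -1.07 in ga4 and -1.12 in Ler. Ler had 324, 327 and 285 CPM on salt, against 742, 691 and 589 CPM on mock, and the mutants 268 to 414 CPM, against 527 to 873 CPM. At 1 h it had 409, 418 and 446 CPM on salt, against 574, 751 and 746 CPM on mock in Ler, where the groups did not overlap. The log2 fold change was -0.71 ± 0.22 and the adjusted P (edgeR) was 0.0504 with all libraries. It was 0.00135 without replicate 2 of della5x on salt and replicate 1 of Ler on mock. That Ler library was picked by its low PIP sum and has the lowest of these mock values. Leaving it out raises the mock mean, so the smaller P is no support for a drop at 1 h.

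The 3 remaining lower PIPs are abundant as well, and their changes were smaller. PIP2;1 (AT3G53420) had 760, 971 and 680 CPM in Ler on salt, against 1455, 1349 and 1223 CPM on mock (-0.74 ± 0.17), and its log2 fold changes in the mutants were -0.75, -0.75 and -0.94. PIP2;2 had 497, 514 and 383 CPM, against 814, 767 and 787 CPM (-0.77 ± 0.11), and in the mutants 394 to 488 CPM on salt, against 594 to 773 CPM on mock, with a call in gai (-0.53) that was lost without replicate 2 of its mock or replicate 3 of its salt group (-0.48 and -0.46). PIP1;1 (AT3G61430) had 440, 575 and 352 CPM, against 750, 750 and 614 CPM (-0.63 ± 0.18, adjusted P = 0.00851). Without replicate 3 of the salt group the last value was -0.47 and no longer past the limit. In Ler the salt libraries of all 3 were below those of mock, and in gai the last gene had -0.51 (adjusted P = 0.0381), a call that 4 of the 6 reduced sets of libraries lost.

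PIP1;2 (AT2G45960), an abundant partner of these channels, did not follow them. It had 1186, 1468 and 1147 CPM in Ler after 8 h of salt, against 1515, 1396 and 1085 CPM on mock, and its log2 fold changes in the 4 genotypes lay between -0.13 and 0.01, with SE of 0.17 in each. The near-identical partner of PIP2;2 was called lower in ga4 only (-0.53 ± 0.15, adjusted P = 0.00825), with -0.37 in della5x, -0.07 in gai and -0.39 in Ler, and that call was lost without replicate 1 of the mock group or replicate 3 of the salt group (-0.46 and -0.45). The differences of these responses between ga4 and Ler had no unadjusted P under 0.05 for this gene.

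**Figure D2:**
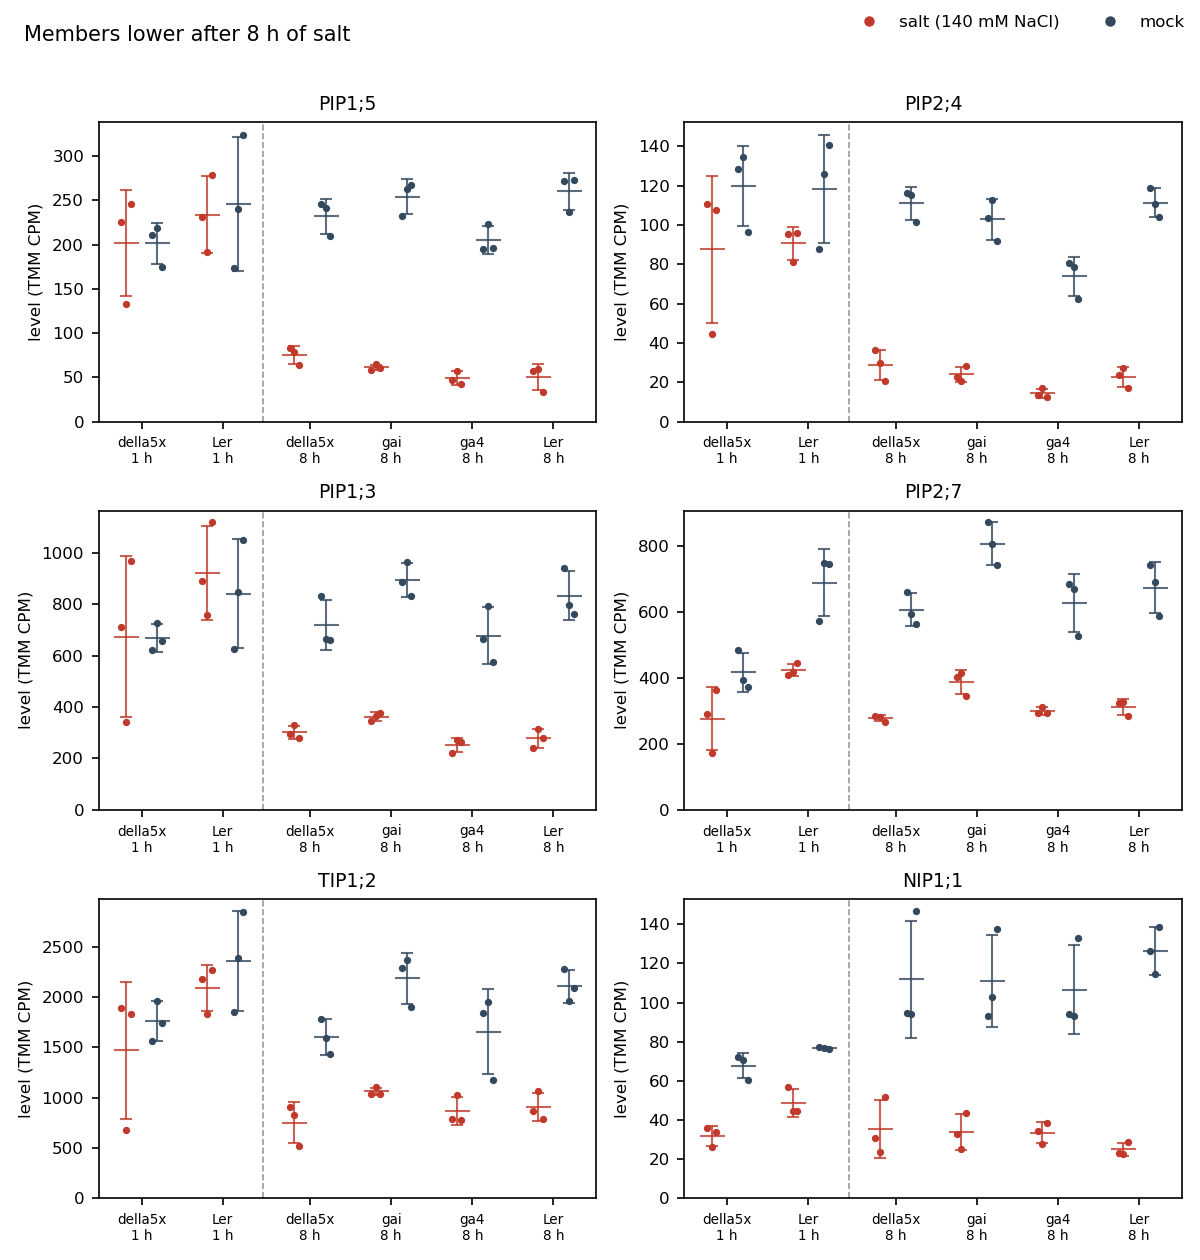
CPM (vertical axes, from 0) of 6 aquaporins called lower at 8 h in all 4 genotypes, by library and group, with salt in red left of mock in dark blue and 1 h left of the dashed line. Points are libraries and bars the mean ± SD of 3, and the salt libraries of 8 h lie below the mock libraries of the same genotype in each panel, as for the first gene in Ler, at 33.6 to 59.3 CPM on salt, against 236 to 273 CPM on mock.

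On the vacuolar side, TIP1;2 (AT3G26520), a channel for water, urea and hydrogen peroxide, had 870, 1065 and 785 CPM in Ler after 8 h of salt, against 2273, 1954 and 2084 CPM on mock (-1.22 ± 0.19, adjusted P = 2.43e-05). The mutants had 522 to 1103 CPM on salt, against 1175 to 2363 CPM on mock, and within each genotype the groups did not overlap. Its close relative TIP1;1 (AT2G36830) changed less, with 1282, 1561 and 1300 CPM, against 2038, 1950 and 1790 CPM in Ler. Its log2 fold change of -0.49 ± 0.14 (adjusted P = 0.0102) missed the size limit in Ler, as did -0.30 in della5x, while -0.56 in gai and -0.54 in ga4 passed it. These sit at the limit: without replicate 3 of the gai salt group the value was -0.46, and without 3 single libraries of ga4 it was -0.49 to -0.46.

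TIP2;1 (AT3G16240) and TIP2;2 (AT4G17340), channels for ammonia and water, were both lower. The first, which overlaps antisense genes, had 128, 136 and 88.7 CPM on salt, against 256, 249 and 202 CPM on mock in Ler (-1.01 ± 0.20), and was called lower in all 4 genotypes, in gai not without replicate 2 of the mock group (-0.62). The second had 519, 562 and 274 CPM, against 961, 1184 and 697 CPM (-1.07 ± 0.29), and was called in Ler, gai and ga4 but not in della5x (-0.72, adjusted P = 0.0639), and in gai not without replicate 1 or 2 of the mock group (-0.84 and -0.86). The test of that difference between della5x and Ler had no unadjusted P under 0.05. TIP2;3 had log2 fold changes of -0.94 to -0.72 and was called in no genotype. In Ler it had 116, 163 and 79.6 CPM on salt, against 264, 242 and 121 CPM on mock, and the groups overlapped. TIP4;1, a urea channel of the root, went the other way at 0.20 to 0.45, and passed the threshold only in ga4 (adjusted P = 0.0408), where it was below the size limit.

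The NIPs split into risers and fallers. NIP1;1 had 23.3, 22.8 and 28.8 CPM in Ler after 8 h of salt, against 126, 114 and 139 CPM on mock, a log2 fold change of -2.34 ± 0.25 (adjusted P = 2.1e-07). The mutants had 23.7 to 51.9 CPM on salt, against 93.0 to 147 CPM on mock, with log2 fold changes of -1.74 to -1.66. NIP6;1 had 1.56, 0.839 and 0.950 CPM, against 3.34, 5.12 and 3.49 CPM in Ler (-1.84 ± 0.42), and 0.238 to 1.88 CPM in the mutants on salt, against 2.93 to 7.03 CPM on mock. No salt library of 8 h reached a mock library of its genotype for either gene.

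NIP4;2 rose most of all members in Ler after 8 h. It had 19.3, 17.5 and 16.6 CPM in Ler on salt, against 3.70, 3.43 and 1.55 CPM on mock (log2 fold change 2.61 ± 0.26, adjusted P = 7.52e-08). The mutants reached 8.52 to 16.6 CPM on salt, against 2.38 to 5.38 CPM on mock, with log2 fold changes of 1.61 in della5x, 1.69 in gai and 1.61 in ga4. In all 4 genotypes each salt library was above each mock library.

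NIP1;2 (AT4G18910), which transports aluminium malate, had 13.3, 15.8 and 16.9 CPM in Ler on salt, against 6.16, 8.13 and 5.84 CPM on mock (1.18 ± 0.22, adjusted P = 0.000209), and log2 fold changes of 0.83, 1.04 and 0.69 in the mutants. In ga4 the adjusted P was 0.0214, a call lost without each of 3 single libraries (0.51 to 0.65). NIP5;1 (AT4G10380), the boric acid channel that takes boron into roots, had 90.6, 84.8 and 83.2 CPM in Ler on salt, against 58.8, 53.3 and 63.9 CPM on mock (0.55 ± 0.12, adjusted P = 0.00113). Its mutants had 79.6 to 108 CPM on salt, against 55.2 to 73.0 CPM on mock, without overlap. In Ler its value was 0.47 without replicate 2 of the mock group, below the size limit, and in della5x it was 0.46 and 0.48 without replicate 1 of the mock or of the salt group.

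Of the plasma membrane genes called higher at 8 h, PIP1;4 had 191, 216 and 216 CPM in Ler on salt, against 128, 134 and 117 CPM on mock (0.71 ± 0.08, adjusted P = 6.25e-07). Its mutants had 168 to 197 CPM, against 108 to 137 CPM, and only della5x, at 0.49 ± 0.08, missed the size limit. PIP2;5 (AT3G54820), a low PIP that is known to rise in dried leaves, had 2.45, 2.40 and 3.75 CPM in Ler on salt, against 0.313, 1.16 and 0.916 CPM on mock (1.84 ± 0.52, adjusted P = 0.00908). It was called in gai (2.12) and ga4 (1.66) as well, but not in della5x (0.49 ± 0.48), whose mock libraries had 0.822, 3.41 and 2.02 CPM, and this difference from Ler had no unadjusted P under 0.05. Without replicate 1 of the Ler mock group the value was 1.44 and its call was lost, as it was without each of 3 libraries in ga4 (1.38 to 1.58).

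**Figure D3:**
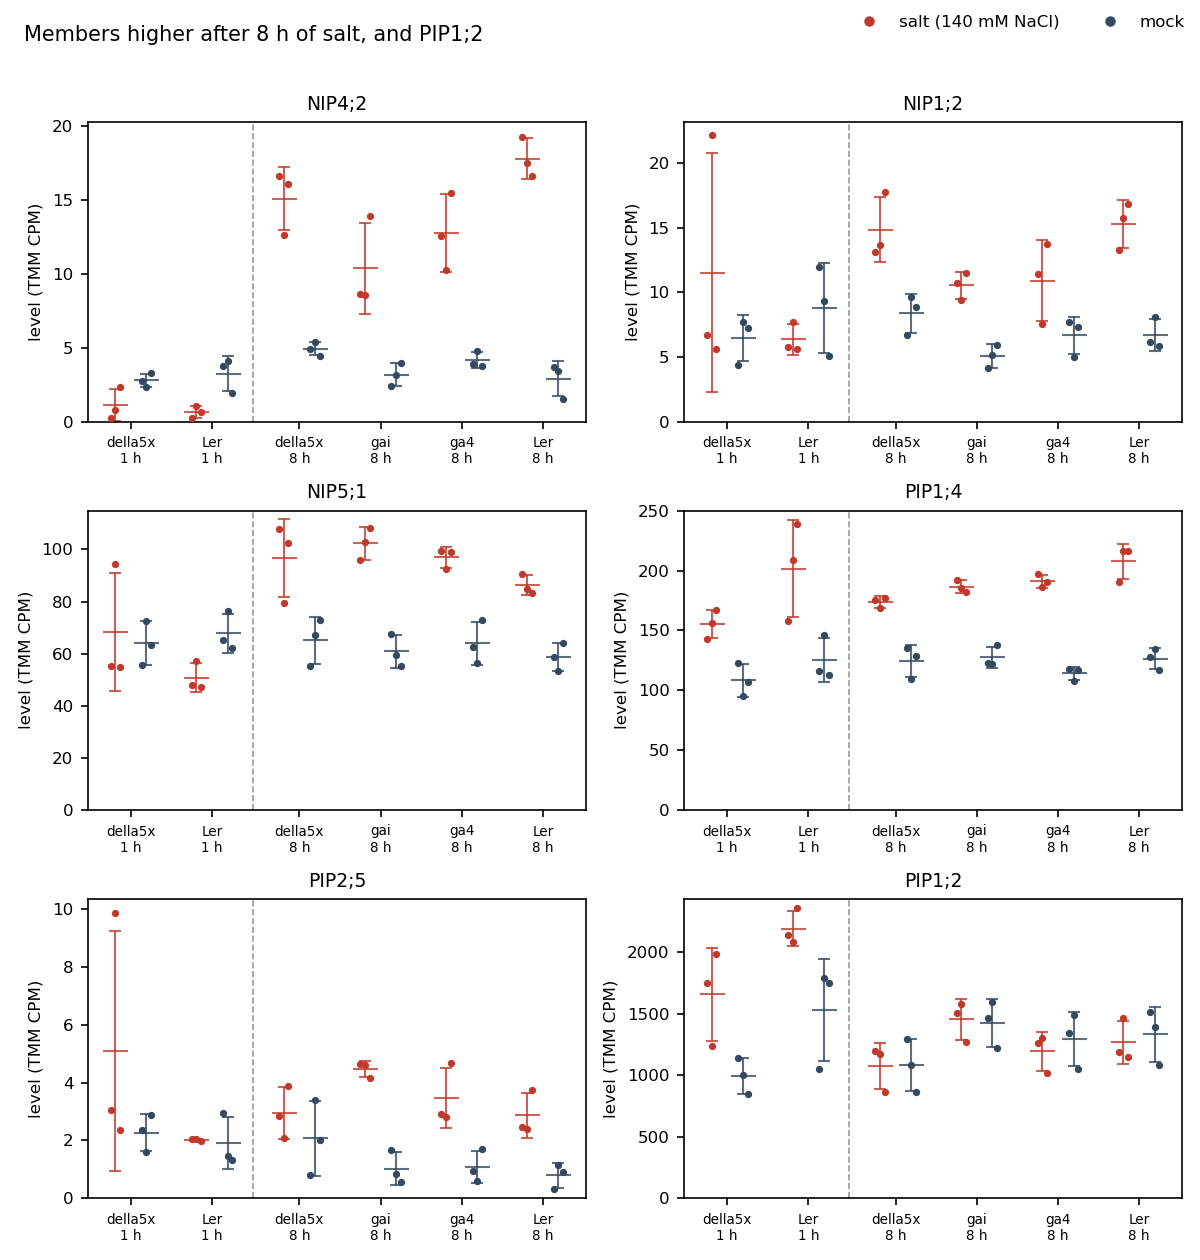
CPM (vertical axes, from 0) of 6 aquaporins, 5 of them called higher in Ler after 8 h and 1 abundant PIP1 gene that was called in no response, by library and group, with salt in red left of mock in dark blue and 1 h left of the dashed line. Points are libraries and bars the mean ± SD of 3, and the pollen-type NIP has 16.6 to 19.3 CPM in Ler on salt at 8 h, against 1.55 to 3.70 CPM on mock.

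A few low members, 3 in all, were called in mutants at 8 h but not in Ler. The lactic acid channel NIP2;1 was lower in della5x, at 0.297, 0 and 0.204 CPM on salt, against 2.14, 5.03 and 1.36 CPM on mock (-4.07, adjusted P = 0.00681), and in ga4 (-3.13 ± 1.06, adjusted P = 0.0318), where the call was lost without each of 3 single libraries. SIP1;2 was lower in ga4, at 0.357, 0.265 and 0 CPM on salt, against 0.649, 1.61 and 0.530 CPM on mock (-2.15 ± 0.63), and not without replicate 2 of the mock or replicate 3 of the salt group (-1.50 and -1.57). In Ler it had 0.668, 0.539 and 0.855 CPM, against 1.77, 1.74 and 0.801 CPM, which overlapped. NIP7;1, a boric acid channel of anthers, was higher in della5x, at 0.713, 0.718 and 1.64 CPM, against 0.219, 0.219 and 0.141 CPM (2.37 ± 0.70), a call lost without replicate 3 of either group (2.19 and 1.86). None of these had an unadjusted P under 0.05 in the test against the response of Ler at 8 h. Of all tested members, 8 were called in no comparison of salt with mock, namely PIP1;2, PIP2;6, PIP2;8, TIP2;3, TIP4;1, NIP3;1, SIP1;1 and SIP2;1.

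To ask whether the response differed between times, the log2 fold change at 8 h was tested against that at 1 h within each line. In Ler, 4 members had a higher and 9 a lower value at 8 h, next to 8.94% and 9.54% of all genes. In della5x, 1 was higher and 3 were lower, next to 3.35% and 2.35%. The median of the members was -0.56 in Ler and -0.54 in della5x, against -0.03 and 0.00 over all genes. The largest difference was that of NIP4;2, whose response was lower than mock at 1 h and higher at 8 h in Ler, by 4.95 ± 0.59 (adjusted P = 0.000229), and by 2.94 ± 0.71 in della5x (adjusted P = 0.0354), the second of which was lost without each of 9 single libraries. PIP1;5 moved the most in the other direction, by -2.31 ± 0.34 in Ler and -1.62 ± 0.28 in della5x. Without replicate 2 of della5x on salt at 1 h, the della5x counts were 3 higher and 13 lower, next to 7.51% and 5.15%, and without replicate 1 of Ler on mock at 1 h the Ler counts were 4 and 9, next to 8.47% and 8.27%. Both libraries were low in aquaporins, and leaving them out moves these differences, so the counts without them are no support.

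Few genes of any kind, aquaporins included, were called between times without salt. Between mock roots of 8 h and of 1 h, 1 member was higher in Ler and 0 lower, next to 0.0803% and 0.497% of all genes. It was NIP1;1, at 126, 114 and 139 CPM at 8 h and 77.3, 76.7 and 76.1 CPM at 1 h (0.73 ± 0.12, adjusted P = 0.0169), a call lost without each of 3 single libraries. In Ler 3 members had an unadjusted P under 0.05 (edgeR), next to 10.9% of all genes. Without replicate 1 of Ler on mock at 1 h, 1 member was called higher and none lower, next to 0.0546% and 0.317%. The median of the members was then -0.21, against 0 over all genes, and -0.09 with all libraries. The library left out was picked by its low PIP sum. Leaving it out raises the means of 1 h for such genes, so the shift is no support for a change with time. In della5x 0 members were called in either direction (edgeR), next to 0.377% and 1.72%, with 6 at an unadjusted P under 0.05, next to 16.9% of all genes, and 1 called by DESeq2.

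Whether the mutants responded to salt differently from Ler was tested as the difference of the log2 fold changes, mutant minus Ler. All these tests share the Ler libraries of their time point. No aquaporin passed an adjusted P of 0.05 in any of the 4 tests with edgeR or with DESeq2, next to 0% of all genes in della5x at 1 h, 0% in della5x at 8 h, 0.0344% in gai and 0% in ga4. At an unadjusted P under 0.05, 1 member differed in della5x at 1 h and 2 in that line at 8 h, next to 4.11% and 4.72% of all genes. In gai and in ga4 1 differed, the same gene in both, next to 5.27% and 5.04%. DESeq2 gave 1, 3, 1 and 2 in the 4 tests. These shares of the family are near the background. The della5x count at 8 h was 5 without replicate 3 of its salt group, whose r with its replicates was 0.960 and 0.967, and 4 without replicate 2 of the Ler mock, replicate 1 of the Ler salt, replicate 1 of the della5x mock or replicate 2 of the della5x salt group. The members were NIP4;2, whose rise at 8 h was smaller than in Ler by a log2 difference of -0.99 ± 0.35 in della5x, -0.92 ± 0.36 in gai and -0.997 ± 0.36 in ga4, PIP1;5, whose drop at 8 h in della5x was smaller by 0.76 ± 0.22, and SIP1;2 in della5x at 1 h (-1.03 ± 0.46). The lowest adjusted P among them (edgeR) was 0.767. The gai value was lost without each of 4 single libraries (-0.79 to -0.61) and the SIP value without each of 9, the smallest being -0.86 without replicate 2 of della5x on salt.

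Without replicate 2 of della5x on salt and replicate 1 of Ler on mock, 9 members differed between della5x and Ler at 1 h at an unadjusted P under 0.05, all with the higher value in della5x, next to 3.77% of all genes with such a value and 6.04% with a lower one. They were 3 abundant PIPs (PIP1;1, PIP1;2 and PIP2;1), the salt-lowered PIP2;7 and all 5 abundant TIPs of the TIP1 and TIP2 groups. The differences were 0.37 to 0.99. The smallest adjusted P was 0.374, and with either library alone left out 0 members differed, so that this count rests on which libraries enter. Both left-out libraries were low in aquaporins, and the Ler one was picked by its PIP sum. Leaving them out raises these differences, so the count is no support for a difference between the lines.

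Under mock conditions few genes of any kind, aquaporins included, were called between the mutants and Ler. In della5x, 0 members were called in either direction at 1 h, next to 0.0979% of all genes higher and 0.0670% lower, and 0 at 8 h, next to 0.163% and 0.321% (edgeR). An unadjusted P under 0.05 (edgeR) was found for 10 of 28 tested members at 1 h and 10 of 29 at 8 h. This was next to 13% of all genes at 1 h and 9.35% at 8 h, so the share of members was larger at both times. The family was not tested as a set. DESeq2 called 3 and 2 members. In gai 1 member was higher and 0 lower, next to 0.321% and 0.468%, and in ga4 0 were higher and 1 lower, next to 0.702% and 0.611%. At an unadjusted P under 0.05 these lines had 6 and 5 of 29 tested members, next to 14.5% and 12.4%, and DESeq2 called 1 in each. The gai gene was PIP2;6 (AT2G39010), a PIP known mainly from leaves, at 6.88, 5.49 and 5.93 CPM in gai, against 1.15, 3.17 and 1.26 CPM in Ler (1.71 ± 0.37, adjusted P = 0.0440). It had 5.24, 4.57 and 2.81 CPM in ga4 (1.18 ± 0.37, adjusted P = 0.161) and 0.713, 0.612 and 0.517 CPM in della5x (-1.60 ± 0.42, adjusted P = 0.151). The della5x libraries lay below, and those of gai above, all of Ler. Without each of 5 single libraries the gai call was lost (1.45 to 1.78). Beside it, 3 shoot marker genes summed to 39.7 to 57.2 CPM in gai mock roots, where 1 of them was at 0, to 9.65 to 34.6 CPM in ga4 and to 3.43 to 10.7 CPM in della5x, against 20.0 to 29.2 CPM in Ler, and their part in the result was not tested.

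The ga4 gene was PIP2;4, at 80.7, 78.6 and 62.4 CPM in ga4, against 119, 111 and 104 CPM in Ler (-0.59 ± 0.11, adjusted P = 0.0170), without overlap, and the call was lost without each of 3 single libraries (-0.59 to -0.49). SIP1;2 was high in della5x at both times, at 5.33, 3.84 and 4.37 CPM in della5x, against 1.35, 1.36 and 1.55 CPM in Ler at 1 h, and 6.69, 4.81 and 5.31 CPM, against 1.77, 1.74 and 0.801 CPM at 8 h. The groups did not overlap, yet the adjusted P was 0.0839 and 0.0534 with edgeR (1.66 ± 0.26 and 1.95 ± 0.41), while DESeq2 called both. This gene lies 289 kb from RGL3, a gene that carries an introduced allele in della5x, and linked sequence of another origin and the DELLA lesions cannot be told apart for it.

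**Figure D4:**
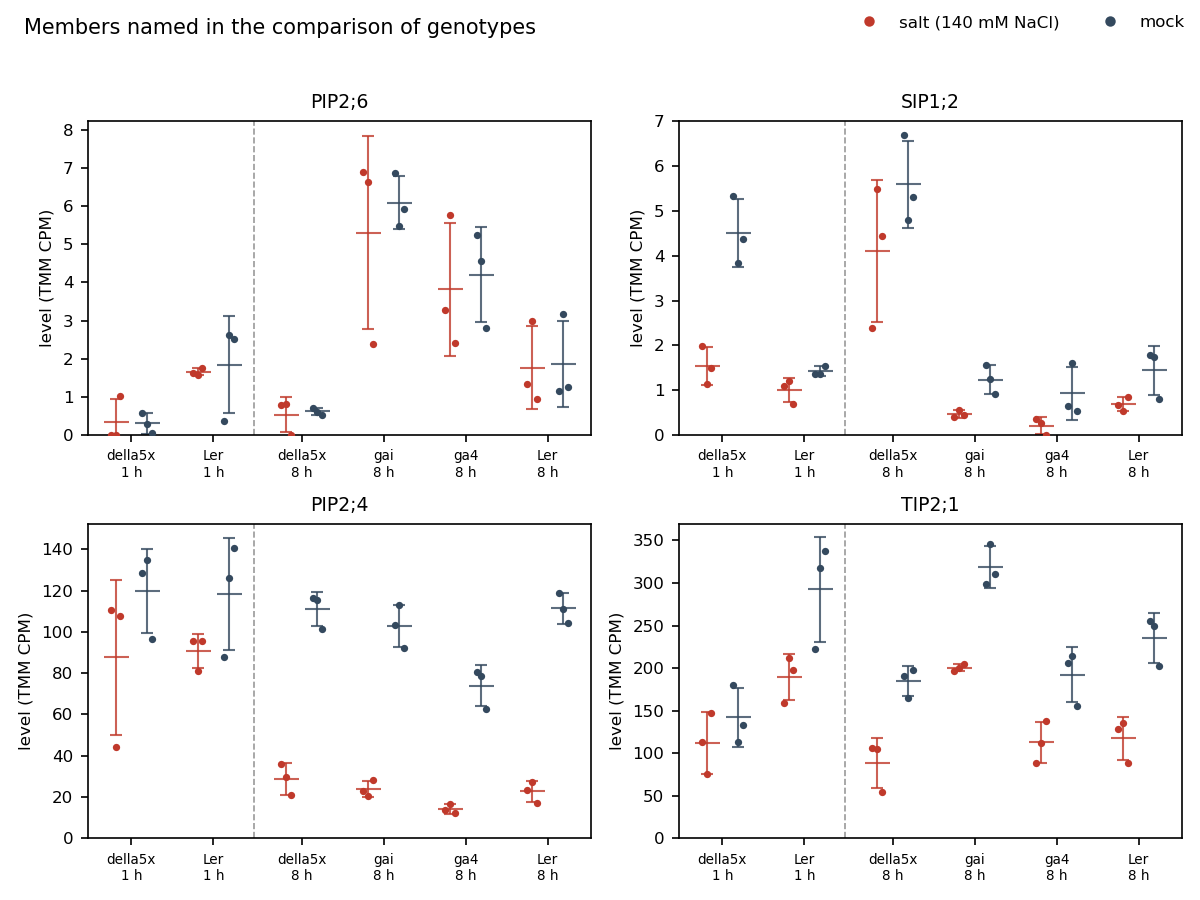
CPM (vertical axes, from 0) of 4 aquaporins named in the comparison of genotypes, by library and group, with mutants left of Ler within each time, salt in red left of mock in dark blue and 1 h left of the dashed line. Points are libraries and bars the mean ± SD of 3, and the SIP gene has 4.81 to 6.69 CPM in della5x mock roots at 8 h, against 0.801 to 1.77 CPM in Ler.

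At 1 h the mock comparison also turned on replicate 1 of Ler, which was picked by its low PIP sum. Leaving it out raises the Ler means of such genes, so the counts without it are no support for a difference. Without it, 7 members were called lower in della5x, next to 0.924% of all genes, and 1 higher, next to 1.81%. The lower ones were PIP1;1, PIP1;2, PIP2;1, PIP2;7, TIP2;1, TIP2;2 and TIP2;3, with log2 fold changes of -1.34 to -0.60, and the higher one was the SIP gene (1.62). At 8 h the same 7 genes had log2 fold changes with a negative sign in della5x as well, as did all 5 PIP1 genes and all 6 tested TIPs, but none was called, and the median over all tested members was -0.15, against 0.01 over all genes.

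Proteins that are known to act on aquaporins were followed by the transcripts of 11 genes for their traffic, turnover, phosphorylation and the hydraulics of the root. In Ler 4 were called higher and 2 lower at 1 h, next to 8.54% and 5.37% of all genes, and 2 and 2 at 8 h, next to 12.9% and 10.4%. TSPO, whose protein is known to carry PIP2;7 to breakdown, was higher by 5.96 ± 0.38 at 1 h and 6.96 ± 0.63 at 8 h, and OST1, a kinase of abscisic acid signalling that phosphorylates PIP2;1, by 0.60 ± 0.15 and 1.39 ± 0.11. The syntaxin gene SYP121 (0.79 ± 0.10) and the ubiquitin ligase gene RMA1 (0.56 ± 0.10) were higher at 1 h only, at 0.03 and -0.06 at 8 h. HCR1, a kinase that controls root water uptake, was lower, with log2 fold changes of -0.98 ± 0.24 and -1.60 ± 0.29. At 8 h both directions were also present in the mutants, with 2 higher and 1 lower in della5x and in gai, and 2 and 2 in ga4. The shares of all genes higher and lower were 13.7% and 9.03% in della5x, 10.6% and 8.35% in gai, and 10.7% and 9.01% in ga4.

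Proton pumps, which energise the plasma membrane and the vacuole and set the pH to which PIPs respond, were followed by 15 listed genes, of which 14 were tested. At 8 h 6 were called higher in gai, 4 in della5x, 3 in ga4 and 5 in Ler, next to 10.6%, 13.7%, 10.7% and 12.9% of all genes, none was called lower, and the others were not called. The plasma membrane pumps AHA1, AHA3 and AHA4 were higher in all 4, in Ler by 1.01 ± 0.10, 1.99 ± 0.21 and 2.02 ± 0.14. At 1 h AHA2 was lower in Ler (-0.69 ± 0.20) and no other pump was called in either line.

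Marker genes of root cell types were read at 8 h beside the aquaporins. Of all genes tested, 10.4% were called lower and 12.9% higher in Ler at that time. The shares called lower were 9.03% in della5x, 8.35% in gai and 9.01% in ga4. Of 6 endodermis markers 4 were called lower and 1 higher in Ler, and all 6 summed to 348 to 430 CPM on salt, against 592 to 652 CPM on mock. Of 4 genes of dividing cells all were lower in Ler, with sums of 75.8 to 83.4 CPM on salt, against 143 to 155 CPM on mock. Of 4 epidermis markers none passed the test in Ler and 1 was lower in each mutant, with sums in Ler of 229 to 305 CPM on salt, against 216 to 224 CPM on mock. Of the other lists in Ler, 0 of 4 xylem genes were called, 1 of 3 phloem genes was higher, 1 of 3 root cap genes was higher and 1 lower, and 1 of 2 stem cell genes and 1 of 2 tested shoot genes were lower. No gene of the endodermis, division and epidermis lists was at 0 in any group of 8 h, and the part of cell composition in the fall of the PIPs and TIPs was not tested.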

How the data were processed

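The family was taken whole by locus identifiers, and it and the other gene lists were chosen for study with earlier results of these data known. Whether counting used strand is not given in the sources used here. Per the study's methods, RNA of lower roots (pools of 50 to 100 seedlings) was sequenced as paired 150-base reads, trimmed with fastp, aligned to TAIR10 with Hisat2 and counted per gene with HTSeq-Count, and the authors deposited raw counts for 28775 genes, of which 4394 had no count. The 36 libraries held 16772984 to 23811804 counts (median 18884857), so that P values measure the spread between 3 pools a group.

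From these counts, edgeR 4.0.16 (R 4.3.3, limma 3.58.1) gave TMM factors, CPM and quasi-likelihood tests over all genes that passed filterByExpr (minimum count 10, minimum total 15). Salt responses and their differences were fitted on all libraries of a time point, genotypes on its mock libraries, and times on all libraries of a line. A call needed a Benjamini-Hochberg adjusted P under 0.05 together with a log2 fold change outside -0.5 to 0.5, and for differences between responses an unadjusted P under 0.05 is also given. Values in every library are given for members called in Ler at either time or whose response differed from Ler at an unadjusted P under 0.05, and for further members that a result turns on. The fits were checked on simulated data. Alternatives were DESeq2 1.42.0, RLE size factors, no filter, all 36 libraries in the fit, and each library left out. Leaving out replicate 2 of della5x on salt and replicate 1 of Ler on mock, both of 1 h, was chosen after seeing the data. The Ler library was picked by its PIP sum. A count of 0 allows up to 3 counts. Sequences were read from RefSeq TAIR10.1 with Python 3.11.15, and figures drawn with matplotlib 3.10.9.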

Additional observations from a re-analysis of the deposited data

Results flagged for a closer look

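The response to salt differed between 8 h and 1 h, by the test of the difference itself (edgeR, adjusted P under 0.05), for 13 aquaporins in Ler and 4 in della5x. The shares of all genes higher and lower were 8.94% and 9.54% in Ler and 3.35% and 2.35% in della5x. Without replicate 2 of della5x on salt at 1 h, 3 members were higher and 13 lower in della5x, next to 7.51% and 5.15%. That library was low in aquaporins, and leaving it out raises the response at 1 h, so these counts are no support for a change with time. The change with time was not tested between the lines, so the counts of 13 and 4 do not show a weaker change in della5x. In Ler the difference, as log2 fold change at 8 h minus that at 1 h, was 4.95 for NIP4;2, 1.64 for NIP1;2, 0.99 for TIP4;1 and 0.97 for NIP5;1. It was -2.31 for PIP1;5, -1.92 for PIP2;4, -1.72 for PIP1;3, -1.70 for NIP1;1, -1.10 for PIP2;2, -1.06 for PIP1;1, -1.05 for PIP2;1, -1.05 for TIP1;2 and -0.86 for PIP2;3. In della5x it was 2.94 for NIP4;2, -1.62 for PIP1;5, -1.17 for PIP1;1 and -1.13 for PIP2;1. Of the Ler values, PIP1;1 lost its call without each of 6 single libraries (-1.03 to -0.90), PIP2;3 without each of 9 (-0.93 to -0.64) and TIP4;1 without each of 7 (0.82 to 1.03). Of the della5x values, NIP4;2 lost it without each of 9 (2.79 to 3.04) and PIP2;1 without each of 10 (-1.25 to -0.998).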

How the results depend on the processing

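No paired analysis was possible because the labels give the libraries no replicate numbers, so that a number follows the order of listing and only names a library. At 8 h replicate 3 had the lowest PIP and TIP sums and the highest NIP sum in 8 of 8 groups, and no block was fitted on this order. Of 103 results for named members, all 103 kept their direction and call with RLE size factors, without the low-count filter and with DESeq2, and 89 with all 36 libraries in a single fit, where 14 were no longer called. With single libraries left out, 638 of 750 values kept their call, 112 lost it and 0 reversed. The cause of these changes was not tested.

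With all 36 libraries in a single fit, 6 members were lower in Ler at 1 h, 2 higher and 4 lower in della5x at 1 h, 2 differed between the responses of della5x and Ler at 1 h and 0 between gai and Ler, 2 were lower in della5x mock roots at 1 h, 0 higher in gai and 0 lower in ga4 mock roots, 7 lower in della5x at 8 h minus 1 h, and 0 (Ler) and 2 (della5x) higher with time on mock. With DESeq2, 2 members were higher in della5x at 1 h, 2 differed between ga4 and Ler, 1 was higher and 2 lower in della5x mock roots at 1 h, 1 higher and 1 lower at 8 h, 8 lower in della5x at 8 h minus 1 h, and 1 lower with time in della5x on mock. RLE size factors and no filter each gave 2 differing responses in della5x at 1 h, and no filter gave 2 in ga4 and 1 member higher in della5x mock roots at 8 h. At an adjusted P under 0.05, 0 responses differed in each of the 4 tests. Without replicate 2 of della5x on salt and replicate 1 of Ler on mock at 1 h, 6 were higher in della5x at 1 h and 9 responses differed. Both libraries were low in aquaporins, so these counts are no support for a response or a difference.

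With single libraries left out, the members higher and lower in response to salt numbered 0 to 1 and 1 in Ler and 0 to 1 and 2 to 4 in della5x at 1 h, and at 8 h 4 to 5 and 11 to 14 in Ler, 4 and 12 to 13 in della5x, 5 and 9 to 13 in gai, and 3 to 5 and 13 to 17 in ga4. Differing responses numbered 0 to 4 and 2 to 5 in della5x at 1 h and 8 h, 0 to 4 in gai and 1 to 4 in ga4. On mock, members higher and lower than in Ler numbered 0 to 1 and 0 to 7 in della5x at 1 h, 0 and 0 at 8 h, 0 to 1 and 0 in gai, and 0 to 1 and 0 to 1 in ga4. For 8 h minus 1 h they were 3 to 5 and 7 to 11 in Ler and 0 to 3 and 2 to 13 in della5x, and with time on mock 0 to 1 and 0 in Ler and 0 and 0 in della5x.

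Each group held 3 pools, and antisense neighbours and cell composition limit single values. Whether the windows shared by the closest PIP2 pair affect its counts was not measured.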
